A study of Mus musculus with 32 samples.

Results

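The Egr, Nr4a and Klf transcription factors were followed across 32 mouse arrays in 3 experiments on Ebf1, the factor that commits progenitors to the B lineage. All single-gene probe sets of Egr1, Egr2, Egr3, Nr4a1, Nr4a2, Nr4a3, Klf2, Klf4 and Klf6 were taken, which gave 23 of 45101 probe sets and 9 of 18193 genes. Egr1, Nr4a1 and Klf2 had 1 probe set each, Egr2, Egr3 and Klf4 had 2, Nr4a3 had 3, Klf6 had 5 and Nr4a2 had 6. For values per sample, the probe set with the largest mean variance over the 3 experiments stands for its gene. That choice favours probe sets that move, so the others are given beside it.

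The first experiment used the mouse pre-B cell line 230238, infected with the GFP vector pMIG carrying Ebf1-engrailed (3 samples) or with empty pMIG (3 samples). Engrailed supplies a repressor domain, so the fusion is a repressive form of Ebf1, and all 6 samples were sorted for GFP. The second used E14.5 fetal liver cells of Ebf1-/- C57BL/6J embryos, expanded on OP9 stroma with KIT ligand, FLT3L and interleukin-7. All of them carried Ebf1-ER, a fusion held inactive until 4-hydroxytamoxifen binds it, and 2 samples were taken at each of 0, 6, 12 and 24 h after 0.1 uM was added. The third compared live-sorted cells of 8 enlarged lymph nodes of Ebf1+/-Pax5+/- C57BL/6J mice of about 30 weeks, 2 arrays each and each number taken as 1 mouse, with 2 samples of sorted wild-type (wt) C57BL/6J pro-B cells whose age and gate are not given. No sample tested the vector or 4-hydroxytamoxifen without Ebf1-ER, so time, drug and Ebf1-ER activity cannot be told apart in the second experiment. The labels do not say whether numbered samples are separate cultures, and the spread behind each p-value may then be technical.

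The Egr and Nr4a genes and some Klf genes are among those that cells switch on within minutes of a signal, before any new protein is made. Egr1, Egr2 and Egr3 are zinc-finger activators downstream of the MAP kinase pathway and serum response factor, and they are held in check by the corepressors Nab1 and Nab2. Nr4a1, Nr4a2 and Nr4a3 are nuclear receptors without a known natural ligand, which are induced by antigen receptor and cyclic AMP signals and are read in lymphocytes as a trace of recent signalling. Klf2 keeps lymphocytes quiescent and directs their trafficking, Klf4 can restrain proliferation of B cells, and Klf6 is a broadly expressed member that responds to stress and growth factors.

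Regulatory sequence was taken from RefSeq (GRCm38.p6) for Egr2, Nr4a1, Nr4a2, Nr4a3, Klf2, Klf4 and Klf6. The searched windows ran from 250 bases before to 50 bases after each annotated start, on both strands. The letters searched were TGACG, which is one arm of the cyclic AMP response element, the full element TGACGTCA, which contains it, GCGTGGGCG for Egr proteins, TCCC and GGGA around any 2 bases for Ebf1, AAAGGTCA for Nr4a proteins and GGGGCGGGG for Klf and Sp proteins, with the CArG box of serum response factor and the MEF2 site by name. The 250 bases before the start of 4 members that carry such a signal-linked motif are printed, on the strand of the gene and 5′ to 3′. Nr4a3 and Klf4 also hold TGACG and are not printed. Capitals mark the CArG box in Egr2, the MEF2 site in Klf2 and TGACG or its complement CGTCA in all 4 printed members.
Egr2, chr10:67537619-67537868, plus strand: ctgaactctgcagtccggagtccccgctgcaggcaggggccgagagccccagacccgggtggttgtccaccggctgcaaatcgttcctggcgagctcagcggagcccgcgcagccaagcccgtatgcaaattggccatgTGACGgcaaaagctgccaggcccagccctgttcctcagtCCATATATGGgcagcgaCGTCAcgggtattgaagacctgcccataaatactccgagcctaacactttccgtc
Nr4a1, chr15:101266596-101266845, plus strand: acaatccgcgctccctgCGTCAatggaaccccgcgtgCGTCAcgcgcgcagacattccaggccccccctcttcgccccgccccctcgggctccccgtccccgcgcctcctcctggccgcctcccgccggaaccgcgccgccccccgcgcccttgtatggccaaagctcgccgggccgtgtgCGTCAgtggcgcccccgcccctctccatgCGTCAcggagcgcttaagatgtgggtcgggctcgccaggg
Nr4a2, chr2:57124004-57124253, minus strand: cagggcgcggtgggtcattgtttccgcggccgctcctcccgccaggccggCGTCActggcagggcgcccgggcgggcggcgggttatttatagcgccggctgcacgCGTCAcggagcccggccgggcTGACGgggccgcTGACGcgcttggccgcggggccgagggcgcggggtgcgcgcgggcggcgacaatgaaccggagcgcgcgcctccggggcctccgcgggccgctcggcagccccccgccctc
Klf2, chr8:72318812-72319061, plus strand: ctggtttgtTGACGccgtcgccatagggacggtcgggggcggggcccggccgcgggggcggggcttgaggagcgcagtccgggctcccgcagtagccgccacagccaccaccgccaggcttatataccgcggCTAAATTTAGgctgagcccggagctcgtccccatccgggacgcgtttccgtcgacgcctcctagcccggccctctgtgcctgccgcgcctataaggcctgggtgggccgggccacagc

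The 3 Nr4a windows each held 4 copies of TGACG on either strand, whereas 20.8% of 32851 promoter windows of the same length held at least 1. A CArG box lay in 4 of the 5 annotated Egr2 windows and in 1.63% of all windows. Of those 4, 3 overlap and share the same box, so there are only 2 different boxes. In the printed window the box begins at -72 from the start. Klf2 held the only MEF2 site among these members, at -118 from its start, and 0.557% of all windows held one. GC-rich GGGGCGGGG stood 3 times in Klf4, 2 times each in Klf2 and Nr4a1 and 1 time in 1 of the 5 Egr2 windows. At least 1 copy stood in 11.4% of all windows, and windows with several copies were not counted. None of the 8 motifs was found in the Klf6 window, and TGACGTCA (1.79% of all windows), GCGTGGGCG (0.612%), the Ebf1 letters (0.904%) and AAAGGTCA (1.51%) were found in no member window. A match describes letters and is not evidence of binding.

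The deposited values are log2 values centred for each probe set, so 0 does not mean absence. In the line and the course 0 is the median of every probe set over the arrays, whereas in the tumour experiment that holds for 24.0% of probe sets and the point taken as 0 is not stated. Differences between samples of an experiment can be read, but levels, and whether a marker is absent, cannot. In the Ebf1-ER course the 0 h arrays were split from the 6 later ones along principal component 1 (67.3% of variance), and their values spread more widely over all probe sets (SD 0.512 and 0.518, against 0.178 to 0.240). In the line, the Ebf1-engrailed sample numbered 3 lay nearer the middle of the first component (loading 0.167) than samples 1 and 2 (0.498 and 0.508). The wt pro-B samples lay apart from all 8 lymph nodes (loadings 0.586 and 0.643, against at most 0.089). A probe set was called where limma's adjusted p, corrected by Benjamini-Hochberg over 45037 probe sets, was under 0.05.

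The question in the course was how Ebf1-deficient progenitors change once Ebf1-ER is switched on. All 9 genes were lower at 6 h than at 0 h, by 1.58-fold for Nr4a3 to 50.2-fold for Egr3. The Egr genes and Nr4a1 changed most, Klf2 and Klf6 followed, and Nr4a2, Klf4 and Nr4a3 changed least. Over the 23 probe sets 18 were lower and none higher at 6 h, where 14.7% of all probe sets were called lower and 28.9% were called in either direction. At 12 h 17 were lower and none higher (17.1% of all probe sets lower, 32.5% in either direction). At 24 h 17 were lower and 1 higher (16.3% lower and 16.1% higher of all probe sets, 32.4% together). The groups did not overlap for 20 of 23 at each time, while that held for 58.0%, 62.5% and 62.3% of all probe sets. The median change of the members was -1.89, -2.19 and -1.98 at 6, 12 and 24 h on the log2 scale, against 0.0023, 0.0077 and 0.02 over all probe sets. The 3 comparisons share their 0 h arrays.

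**Figure D1:**
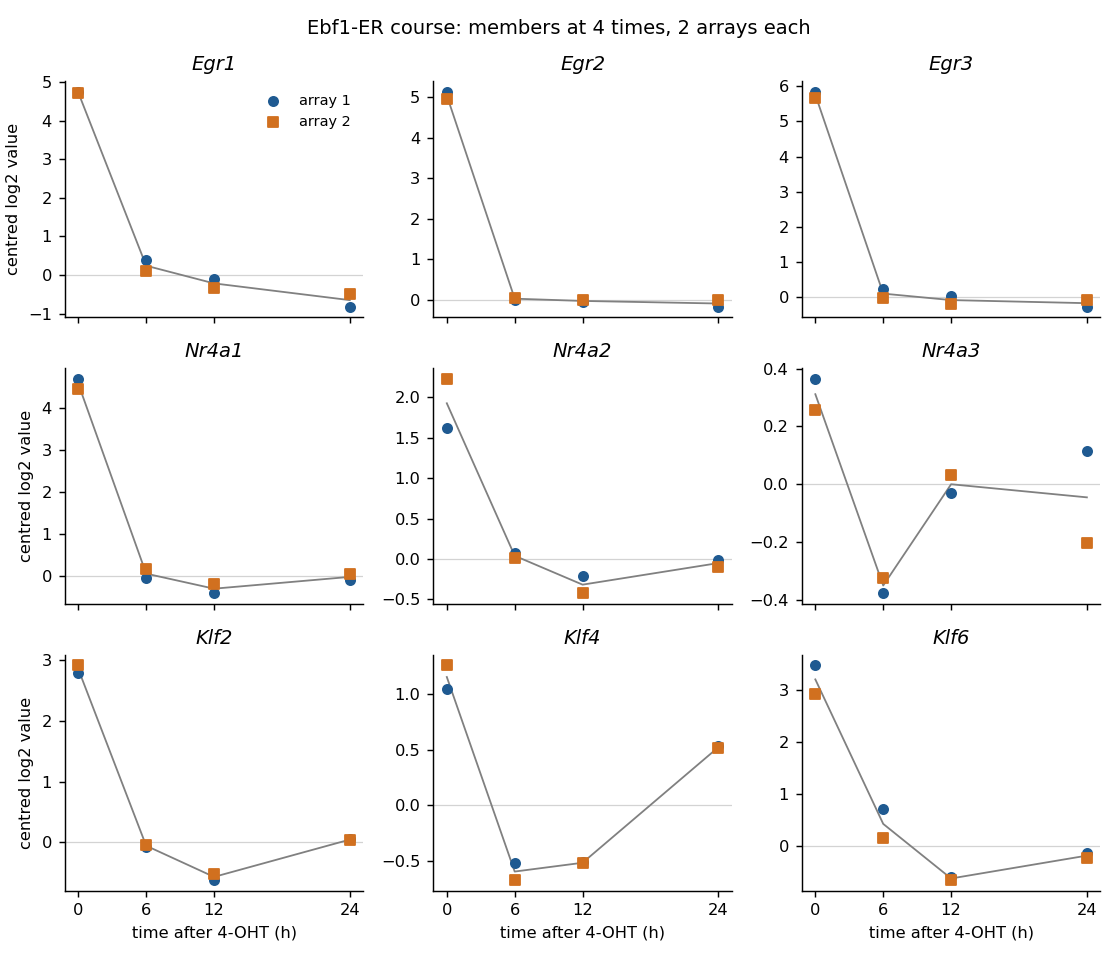
Centred log2 values of the 9 members on each of the 8 Ebf1-ER arrays, against hours after 4-hydroxytamoxifen. Points are arrays, numbered as in the labels, grey lines join the means, and each panel has its own scale. The 0 h arrays lie above all later ones for each of the 9 genes, by much less for Nr4a3, and Klf4 lies higher at 24 h than at 6 and 12 h.

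Egr1, the activator best known as a first responder to growth signals, stood at 4.74 and 4.71 at 0 h, at 0.39 and 0.10 at 6 h, at -0.10 and -0.34 at 12 h and at -0.82 and -0.48 at 24 h. The 0 h arrays were far above all others, and the later times lay in a descending order without overlap. Egr1 was 22.4-fold lower at 6 h (log2 change -4.48 ± 0.15 SE, n = 2 and 2, limma adjusted p = 4.8e-06) and 41.5-fold lower at 24 h. Neither later step passed on its own (12 h minus 6 h -0.46, adjusted p = 0.24; 24 h minus 12 h -0.43, adjusted p = 0.19, both limma). Egr2, a factor of lymphocyte activation and tolerance, was 5.13 and 4.95 at 0 h and between -0.16 and 0.06 on the 6 later arrays. It was 32.1-fold lower at 6 h (-5.01 ± 0.10) and 34.9-fold lower at 24 h, and its second probe set was 21.9-fold lower at 6 h. Egr3, which acts with Egr2 in lymphocytes, was 5.84 and 5.67 at 0 h and between -0.26 and 0.24 later. That was the largest change among the members, 50.2-fold at 6 h (-5.65 ± 0.14) and 60.6-fold at 24 h. The other Egr3 probe set, 1421486_at, did not pass at any time (0.07 at 6 h).

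Nr4a1, the receptor most used as a reporter of antigen receptor signalling, was 4.71 and 4.46 at 0 h, -0.05 and 0.18 at 6 h, -0.41 and -0.19 at 12 h and -0.08 and 0.05 at 24 h. The 0 h arrays again lay far above the rest. Nr4a1 was 22.9-fold lower at 6 h (-4.52 ± 0.13, n = 2 and 2, limma adjusted p = 4.0e-06), 29.4-fold at 12 h and 24.2-fold at 24 h. Nr4a2 was 1.62 and 2.23 at 0 h and between -0.42 and 0.07 later, a smaller gap with more spread between the 0 h arrays. Its change was -1.89 ± 0.19 at 6 h, -2.24 at 12 h and -1.98 at 24 h. Of the 6 Nr4a2 probe sets 4 were lower at each time, whereas 1433422_at (0.25 at 6 h) and 1433423_at (-0.12 at 6 h) did not pass. Nr4a3 stood at 0.37 and 0.26 at 0 h, -0.38 and -0.32 at 6 h, -0.03 and 0.03 at 12 h and 0.11 and -0.20 at 24 h. It passed at 6 h only (-0.66 ± 0.12, limma adjusted p = 0.0039), with -0.31 at 12 h (adjusted p = 0.086) and -0.36 at 24 h (adjusted p = 0.054). Its probe set 1421080_at was called higher at 24 h (0.54 ± 0.15, limma adjusted p = 0.030), so the Nr4a3 probe sets disagree in direction. With the mean of its probe sets Nr4a3 stood at -0.09 at 6 h and did not pass (limma adjusted p = 0.70), and the test of its 24 h value passed without 24 h sample 1 (-0.52, adjusted p = 0.020).

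**Figure D2:**
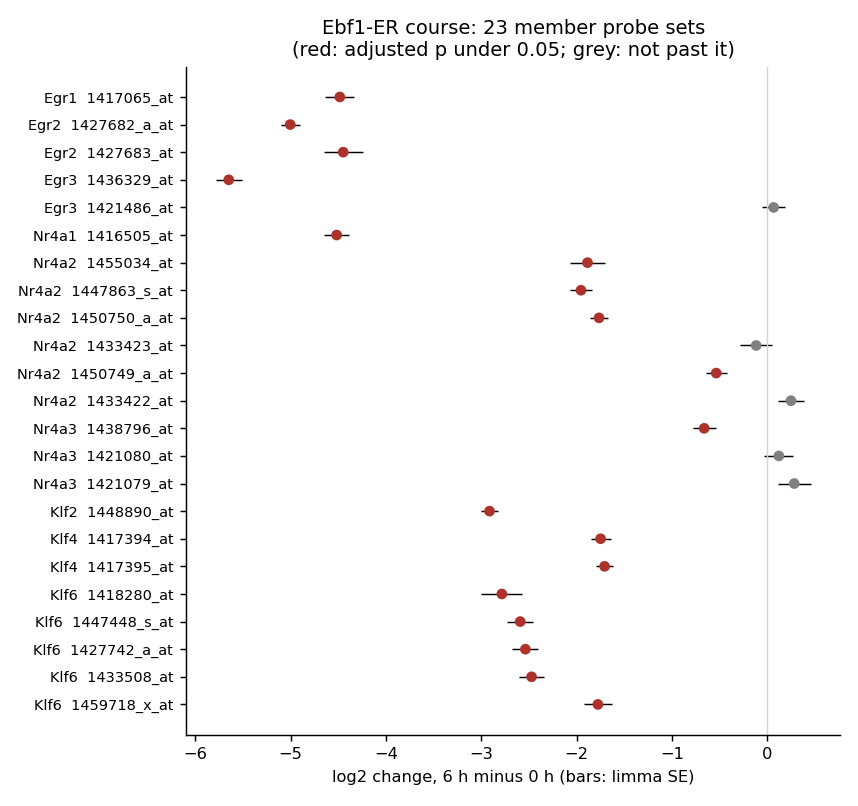
Log2 change at 6 h against 0 h for each of the 23 member probe sets of the Ebf1-ER course, with limma's standard error as bars. Red points passed the adjusted threshold and grey points did not. All probe sets of Egr2, Klf4 and Klf6 passed, while 1 of Egr3, 2 of Nr4a2 and 2 of Nr4a3 lie near 0.

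Klf2, the quiescence factor, was 2.79 and 2.92 at 0 h, -0.08 and -0.04 at 6 h, -0.62 and -0.52 at 12 h and 0.05 and 0.04 at 24 h. It was lowest at 12 h and its 6 later arrays did not overlap between times. Klf2 was 7.54-fold lower at 6 h (-2.91 ± 0.09, n = 2 and 2, limma adjusted p = 4.0e-06), fell further from 6 to 12 h (-0.51 ± 0.09, adjusted p = 0.043) and rose from 12 to 24 h (0.62 ± 0.09, adjusted p = 0.019). Klf4 stood at 1.05 and 1.26 at 0 h, -0.52 and -0.67 at 6 h, -0.51 and -0.52 at 12 h and 0.53 and 0.51 at 24 h. Its 24 h arrays lay between the 0 h arrays and the others. Klf4 was 3.36-fold lower at 6 h (-1.75 ± 0.10) and 1.55-fold lower at 24 h (-0.63 ± 0.10), and it rose 2.05-fold from 12 to 24 h (1.04 ± 0.10, limma adjusted p = 0.0060). Its other probe set also rose from 12 to 24 h (0.85 ± 0.09). Klf6 was 3.48 and 2.94 at 0 h, 0.70 and 0.14 at 6 h, -0.60 and -0.66 at 12 h and -0.14 and -0.23 at 24 h. All 5 Klf6 probe sets were lower at every time, by 3.43-fold to 6.89-fold at 6 h and 3.81-fold to 14.3-fold at 12 h. From 6 to 12 h 3 of the 5 fell further, by 0.77 to 0.92 on the log2 scale, and the probe set with the widest spread did not pass (-1.05 ± 0.22, limma adjusted p = 0.073).

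Between 6 and 12 h 4 of the 23 member probe sets were lower and none higher, where 0.471% of all probe sets were called lower, 0.930% higher and 1.40% in all. Between 12 and 24 h 3 were higher and none lower, where 1.53% were called higher, 1.31% lower and 2.84% in all. The groups did not overlap for 15 and 14 of 23, against 45.9% and 49.5% of all probe sets. These steps rest on 2 arrays a time. The Klf2 step from 6 to 12 h and its rise from 12 to 24 h lost their calls without any 1 of the 4 arrays compared (limma adjusted p = 0.17 to 0.29 and 0.087 to 0.16), and the rise of Klf4 did so without 3 of the 4 (0.043 to 0.074 over the 4). With all 3 experiments in 1 model these steps of Klf2 and Klf4 lost their calls (limma adjusted p = 0.98 to 1), as did the fall of Klf4 at each time (0.37 to 0.79) and of Nr4a3 at 6 h (0.39).

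Quantile normalization, which forces the wide 0 h arrays to the spread of the others, left smaller changes at 6 h for 8 of the 9 genes and a slightly larger one for Nr4a3. It gave -2.58 for Egr3, -2.42 for Egr2, -1.98 for Nr4a1, -1.88 for Egr1, -1.47 for Klf2, -1.45 for Klf4, -0.91 for Nr4a2 and -0.71 for Nr4a3, all past the threshold, and -0.94 for Klf6 (limma adjusted p = 0.054). At 24 h it turned Klf4 to 0.12 (limma adjusted p = 0.45) and left Egr1, Egr2, Egr3, Nr4a1, Nr4a2, Klf2 and Klf6 lower. With it the background share at 6 h was 12.8%.

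Other genes of these pathways were read from pathway lists, each gene by its most variable probe set in the experiment. In a fit of such probe sets alone, 35.1%, 39.8% and 38.8% of 18193 genes were called at 6, 12 and 24 h. The counts in these lists and in the marker lists below are to be read beside those shares. Among Egr partners, the corepressors Nab1 and Nab2 were lower at 24 h (-0.36 and -0.49) and Nab1 alone at 6 h (-0.55), while Egr4 and Wt1 did not pass at any time, so 1 of 4 at 6 h and 2 of 4 at 12 and 24 h were lower. Among 16 other Klf and Sp genes 6 were lower and 1 higher at each time. At 6 h the lower ones were Klf11 (-2.07), Klf3 (-1.43), Klf10 (-1.31), Klf13 (-1.28), Klf7 (-0.90) and Sp1 (-0.48), and the higher one was Klf16 (1.01). Klf3, a repressor of the family, rose from 12 to 24 h by 1.04 ± 0.13 (limma adjusted p = 0.011). Among 16 upstream factors 7 were lower at 6 h and none higher, and at 24 h 7 were lower and 3 higher. Serum response factor, Srf, stood at -0.55, its partners Elk3 and Elk4 at -0.84 and -0.58 and the MEF2 genes Mef2d, Mef2a and Mef2c at -0.97, -0.85 and -0.79, all at 6 h. Foxo1 was higher at 24 h (0.70), as were Crtc1 (0.86) and Creb1 (0.61), while Foxo3 was lower (-0.94). The nuclear receptor partners Rxra, Rxrb and Rxrg did not pass at any time.

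Of 4 measured trafficking genes linked to Klf2, 3 were lower at each time. The egress receptor S1pr1 stood at -0.64, -1.23 and -1.04 at 6, 12 and 24 h, the integrin Itgb7 at -1.09, -1.56 and -2.02 and Cd69, an activation antigen that retains lymphocytes in tissue, at -0.71, -0.74 and -1.50. Ccr7 did not pass. Among 6 lymphocyte genes linked to Nr4a, Irf4 (-0.77 at 6 h) and Ikzf2 (-0.91 at 6 h) were lower at each time and Tox at 24 h (-1.05), while Pdcd1, Tox2 and Batf did not pass.

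Markers of other cells moved with the 0 h arrays. The mean centred value of 5 NK and innate lymphoid markers was 1.00 at 0 h, 0.17 at 6 h, -0.20 at 12 h and -0.38 at 24 h, with 4 of the 5 lower at each time. That of 8 stromal markers was 0.65, 0.32, -0.16 and -0.27, with 2 lower and 1 higher at 6 h and 4 lower at 24 h. Myeloid markers stood at 0.39, 0.07, -0.07 and -0.18, T-cell markers at 0.41, -0.07, 0.01 and 0.03, endothelial at 0.40, 0.02, -0.03 and 0.04, erythroid at -0.48, -0.01, 0.01 and 0.00, mature B at 0.06, -0.11, 0.01 and 0.01 and B-lineage markers at 0.38, -0.12, -0.13 and 0.47. The part of these in the changes of the members was not tested. In bulk samples fewer cells of a type and less RNA per cell cannot be told apart.

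The line asked which members change when Ebf1 targets are repressed in pre-B cells. Nr4a2 was 1.84-fold higher with Ebf1-engrailed, Klf2 was 1.60-fold lower and Egr3 was 1.69-fold lower. Egr1, Egr2, Nr4a1, Nr4a3, Klf4 and the Klf6 probe set with the widest spread did not pass. Of the 23 probe sets 2 were higher and 2 lower, where 5.12% of all probe sets were called higher, 3.72% lower and 8.85% in all. The groups did not overlap for 8 of 23, against 27.4% of all probe sets. The median change over the members was 0.14, against -0.02 over all probe sets.

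**Figure D3:**
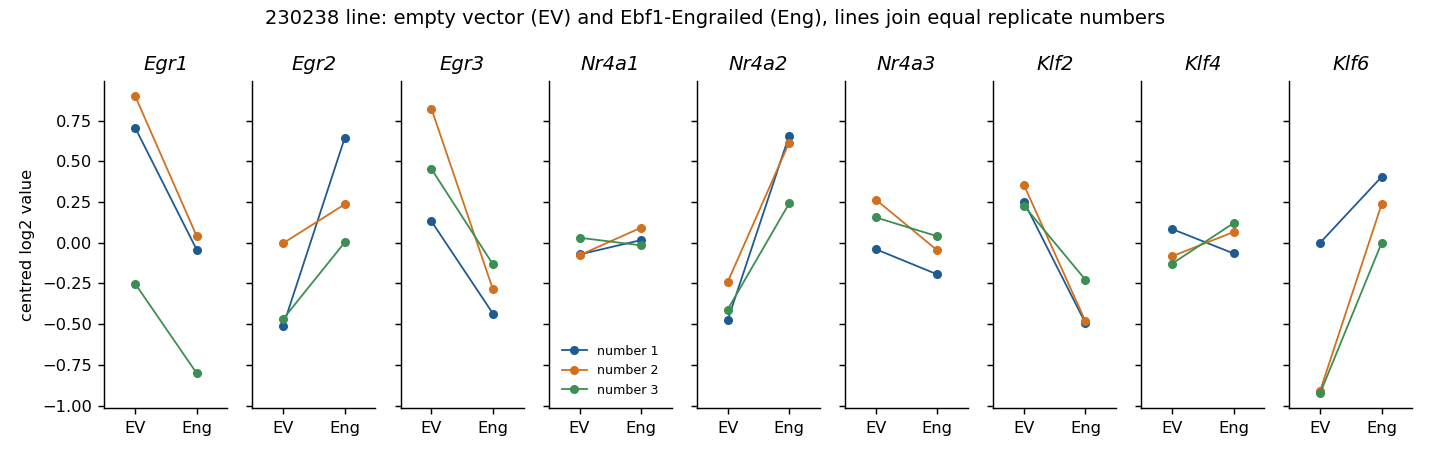
Centred log2 values of the 9 members in the 230238 line, with empty vector (EV) on the left of each panel and Ebf1-engrailed (Eng) on the right. The vertical scale is shared, and coloured lines join samples that share a replicate number. All 3 lines slope down for Egr1, Egr3, Nr4a3 and Klf2 and up for Egr2, Nr4a2 and Klf6, while those of Nr4a1 and Klf4 cross.

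Nr4a2 stood at -0.48, -0.24 and -0.41 with the empty vector and at 0.66, 0.62 and 0.24 with Ebf1-engrailed. The groups did not overlap, and the sample numbered 3 was the lowest of the Ebf1-engrailed samples. The change was 0.88 ± 0.14 (n = 3 and 3, limma adjusted p = 0.010). Of the other 5 Nr4a2 probe sets 4 had changes between 0.36 and 0.85 and 1 had -0.11, none of them past the threshold. Klf2 stood at 0.25, 0.35 and 0.23 with the empty vector and at -0.49, -0.48 and -0.23 with Ebf1-engrailed. Again the groups did not overlap and number 3 lay nearest the empty vector (-0.68 ± 0.10, n = 3 and 3, limma adjusted p = 0.0098). Egr3 stood at 0.13, 0.82 and 0.45 with the empty vector and at -0.43, -0.29 and -0.13 with Ebf1-engrailed (-0.75 ± 0.18, limma adjusted p = 0.049). The call lies at the threshold. The other Egr3 probe set, 1421486_at, changed by -0.07 and did not pass (limma adjusted p = 0.81).

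Egr1 stood at 0.71, 0.90 and -0.25 with the empty vector and at -0.04, 0.04 and -0.80 with Ebf1-engrailed. Both samples numbered 3 lay below the others of their group, so the groups overlapped although each number was lower. Without regard to number Egr1 changed by -0.72 ± 0.35 (n = 3 and 3, limma adjusted p = 0.29), and with the replicate number as a block the same change had an adjusted p = 0.0077. Klf6 stood at 0.00, -0.91 and -0.92 with the empty vector and at 0.41, 0.24 and 0.00 with Ebf1-engrailed (0.82 ± 0.26, limma adjusted p = 0.11), with an adjusted p = 0.020 with the block. A second Klf6 probe set, 1447448_s_at, passed without the block (0.53 ± 0.11, limma adjusted p = 0.030). With the block 5 of the 9 genes were called, against 3 without it, and 13.7% of all probe sets, against 8.85%. Over all probe sets number 3 was set apart from 1 and 2, but a pairing among numbers 1 and 2 was not clear. Egr2 changed by 0.62 ± 0.20 (limma adjusted p = 0.12). Its groups did not overlap but nearly touched, at 0.0025 in Ebf1-engrailed sample 3 and -0.0025 in empty-vector sample 2. The groups of its second probe set, 1427683_at, overlapped (0.44 ± 0.16, limma adjusted p = 0.17). Nr4a3 (-0.19), Klf4 (0.08) and Nr4a1 (0.07) had the smallest changes.

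The calls in the line rest on few samples. Nr4a2 and Klf2 lost theirs without Ebf1-engrailed sample 1 (limma adjusted p = 0.055 and 0.057) or sample 2 (0.056 and 0.056), and Egr3 did so without any 1 of the 6 samples other than empty-vector sample 1, with 0.031 to 0.19 over the 6. Klf6 gained one without empty-vector sample 1 (1.13, adjusted p = 0.014). Without both samples numbered 3 Nr4a2 (1.00, adjusted p = 0.0030) and Klf2 (-0.79, 0.0032) passed, Egr1 passed (-0.80, 0.0054) and Egr3 did not (-0.84, 0.060), by limma. With all 3 experiments in 1 model none of the 9 passed (Nr4a2 0.26, Klf2 0.55, Egr3 0.72).

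Among the pathway lists, 1 of 16 other Klf and Sp genes was higher with Ebf1-engrailed, Klf7 (0.85 ± 0.18). In a fit of the most variable probe set per gene alone, 13.6% of 18193 genes were called in the line. Of 16 upstream factors 2 were higher, Elk1 (0.59) and Mrtfb (0.54), and 3 lower, Foxo1 (-0.82), Mef2d (-0.81) and Elk4 (-0.77). Itgb7 was higher (1.45 ± 0.22) among 4 trafficking genes. Irf4 (-2.62 ± 0.30) and Batf (-0.63 ± 0.13) were lower among 6 Nr4a-linked genes. No Egr or retinoid receptor partner passed. The mean of 10 B-lineage markers was 0.54 with the empty vector and -0.80 with Ebf1-engrailed, with 5 lower, and that of 10 myeloid markers was -0.30 and 0.38, with Cd68 (2.16) and Fcgr3 (2.69) higher. Klrd1 (1.91), of the NK markers, and Lat (3.57), of the T-cell markers, were also higher, Car2 (-1.13) and Pecam1 (-0.62) lower, and no stromal or mature B marker passed. Their part in the changes of the members was not tested.

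The lymph nodes were compared with wt pro-B cells to ask how the members stand in the tumours of Ebf1+/-Pax5+/- mice. Egr1 was 5.56-fold lower in the lymph nodes and Klf6 3.91-fold lower, with all 5 Klf6 probe sets lower. The other 7 genes did not pass. In all 6 of 23 probe sets were lower and none higher, where 6.94% of all probe sets were called lower, 8.26% higher and 15.2% in all. The same 6 were those whose groups did not overlap, against 24.9% of all probe sets. The median change over the members was -0.05, against 0.0051 over all probe sets.

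**Figure D4:**
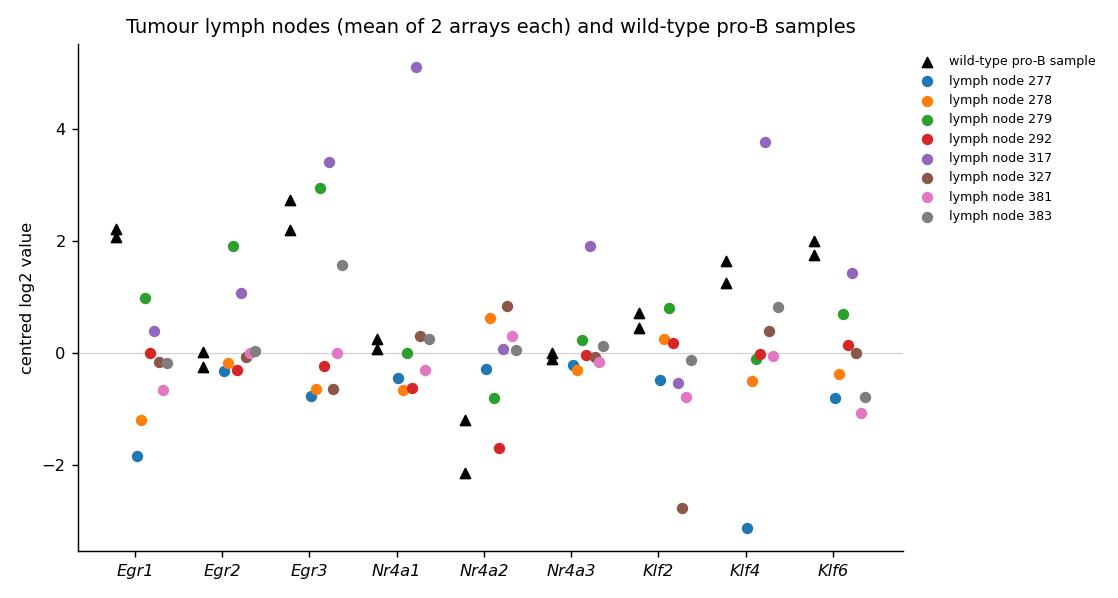
Centred log2 values of the 9 members in the 2 wt pro-B samples (triangles) and the 8 lymph nodes (circles, mean of 2 arrays each, coloured by node number). All nodes lie below both wt samples for Egr1 and Klf6. Lymph node 317 stands far above the other nodes for Nr4a1, Nr4a3 and Klf4, and lymph node 327 far below them for Klf2.

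Egr1 stood at 2.07 and 2.22 in the wt samples and had a lowest value of -1.84, a median of -0.16 and a highest of 0.98 over the 8 lymph nodes. No node reached the wt samples (-2.47 ± 0.59, n = 8 and 2, limma adjusted p = 0.019). Klf6 stood at 1.76 and 2.00 in the wt samples and between -1.07 and 1.44 in the nodes, with a median of -0.18 (-1.97 ± 0.56, limma adjusted p = 0.040). Its other 4 probe sets were lower by 1.06 to 1.79 on the log2 scale. Both calls were lost without either wt sample (limma adjusted p = 0.11 and 0.15 for Egr1, 0.16 and 0.24 for Klf6) and with quantile normalization (-1.45, 0.16, and -1.15, 0.43). That of Klf6 was also lost without lymph node 277 (0.054), 278 (0.065), 327 (0.062), 381 (0.053) or 383 (0.063). Nr4a2 stood at -1.19 and -2.13 in the wt samples and between -1.70 and 0.85 in the nodes, with a median of 0.07. Its change of 1.55 ± 0.57 did not pass (limma adjusted p = 0.095). It passed with the node as a random block over all arrays (0.026), with all groups in 1 model (0.013) and without lymph node 292 (0.015). None of the 6 Nr4a2 probe sets passed in the main fit. Those not chosen changed by -0.07 to 0.59 (limma adjusted p = 0.24 to 0.62). Egr3 (-1.76 ± 1.12), Klf4 (-1.30 ± 1.24), Klf2 (-1.01 ± 0.70), Egr2 (0.38 ± 0.53), Nr4a1 (0.29 ± 1.26) and Nr4a3 (0.24 ± 0.48) did not pass. Without lymph node 317 the changes of Nr4a1 and Nr4a3 turned to -0.37 and -0.01.

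Markers of other cell types differed between the wt samples and the nodes. In a fit of the most variable probe set per gene alone, 19.9% of 18193 genes were called in this comparison. The mean of 10 myeloid markers was 4.20 in the wt samples and between -1.13 and 1.19 in the nodes. Of the 10, 8 were lower in the nodes, among them S100a9 (-7.99), S100a8 (-7.67), Mpo (-7.21) and Lyz2 (-4.97), genes of granulocytes and monocytes. The stromal list mean was 1.33 in the wt samples and between -0.26 and 0.50 in the nodes, with 2 of 8 lower in the nodes. The wt means of B-lineage markers (-0.20, against -0.77 to 0.60) and T-cell markers (-0.11, against -0.98 to 2.74) lay within the range of the nodes. Of 10 B-lineage markers 1 was higher in the nodes, a probe set of Ebf1 (4.48), whose other 4 probe sets had higher wt means. The difference between the 3′ and 5′ control probe sets of Gapdh, a sign of RNA integrity, was 0.22 and 0.19 in the wt samples and -0.10 to 0.05 in the nodes. That of Actb was -0.05 and -0.20 in the wt samples and -0.06 to 0.08 in the nodes, so the controls did not shift the same way. The part of the myeloid and stromal markers and of these controls in the comparison of Egr1 and Klf6 was not tested.

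**Figure D5:**
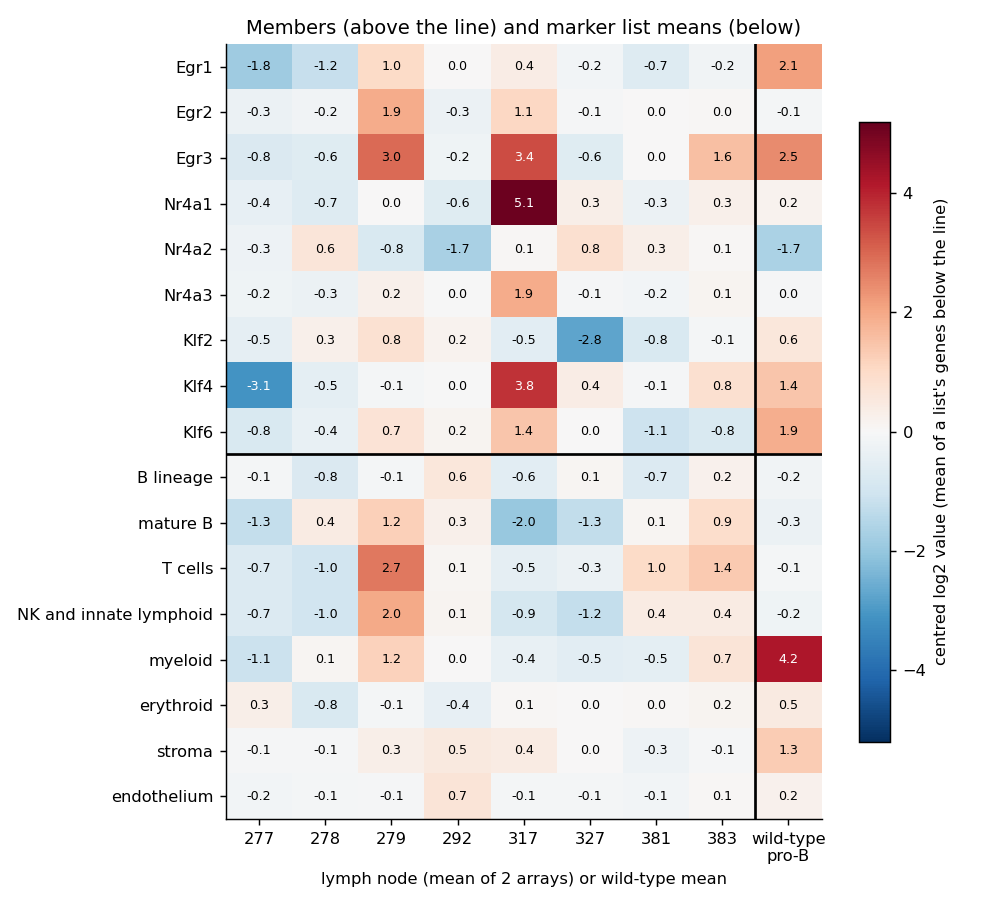
Centred log2 values of the 9 members (above the line) and mean centred values of 8 marker lists (below it) in each lymph node and in the wt pro-B samples. Red is above and blue below 0, which is not the median of most probe sets here, with the value printed in each cell. The myeloid list is highest in the wt samples, the T-cell and NK lists in lymph node 279, and the largest member values in lymph node 317.

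All 9 genes differed between lymph nodes by more than the 2 arrays of a node did, as did 18 of the 23 probe sets, where 54.0% of all probe sets passed (limma moderated F test). The test sets nodes, each taken as 1 mouse, against the 2 arrays of a node, whose spread may be technical alone. The 9 are the most variable probe sets of their genes. The call of Nr4a3 was lost without lymph node 317 (limma adjusted p = 0.24). Klf4 had the widest range over nodes, 6.88 on the log2 scale, from -3.12 in lymph node 277 to 3.76 in lymph node 317, against at most 0.22 between 2 arrays of a node. Nr4a1 ranged over 5.77, with 5.11 in lymph node 317 and -0.66 to 0.31 in the other 7. Nr4a3 was 1.92 in lymph node 317 and -0.30 to 0.24 in the others. Its probe sets 1421080_at and 1421079_at read 0.12 and 0.18 in lymph node 317 and did not pass (limma moderated F test, adjusted p = 0.40 and 0.45). Thus 1 node held most of the range of 2 Nr4a genes by their chosen probe sets. Nr4a2 was unremarkable in lymph node 317 (0.08) and lowest in lymph node 292 (-1.70).

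Lymph nodes 279 and 317 held the highest values of Egr2 and Egr3. Egr3 was 3.41 in lymph node 317, 2.96 in 279 and 1.57 in 383, and -0.76 to 0.00 in the other 5. Egr2 was 1.91 in lymph node 279 and 1.07 in 317, and at most 0.05 elsewhere. Egr1 was highest in lymph node 279 (0.98) and lowest in 277 (-1.84) and 278 (-1.19). Klf2 went its own way, with -2.76 in lymph node 327 and -0.77 to 0.81 in the others. Klf6 was highest in lymph node 317 (1.44) and lowest in 381 (-1.07). Lymph node 279 also had the highest means of T-cell markers (2.74), NK markers (1.98), myeloid markers (1.19) and mature B markers (1.23). Lymph node 317 stood at -0.46, -0.91, -0.40 and -1.96 for the same lists. The part of those cells was not tested.

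Over the 8 lymph nodes the 36 pairs of members had positive correlations in 28 cases, 11 of them with an exact two-sided permutation p under 0.05 before adjustment. Pairs of other genes were not counted, so these numbers cannot be called particular to the members. Only Egr3 with Nr4a3 passed after Benjamini-Hochberg over the 36 (Pearson r = 0.79, exact p = 0.0007, adjusted 0.026; Spearman rho = 0.90, exact p = 0.0046, adjusted 0.082). Without lymph nodes 279 and 317, the farthest from the Egr3 median, r was 0.80 over 6 nodes (exact p = 0.049, adjusted 0.64), and with the mean of each gene's probe sets it was 0.66 over 8 (exact p = 0.062, adjusted 0.16), so this pair did not pass in either. Egr2 with Egr3 reached r = 0.88 (exact p = 0.0089, adjusted 0.088; rho = 0.90, exact p = 0.0046, adjusted 0.082) and 0.67 (exact p = 0.093, adjusted 0.64) without those nodes. Nr4a1 with Nr4a3 reached r = 0.98 (exact p = 0.0094, adjusted 0.088; rho = 0.71, exact p = 0.058, adjusted 0.21) and 0.47 (exact p = 0.34, adjusted 0.68) without lymph nodes 278 and 317, which were left out together. Of these, 317 stood apart from all other nodes for both genes (5.11 and 1.92). Lymph node 278 lay close to its nearest neighbour (gaps 0.007 and 0.043 of the range). The lowest was Nr4a2 with Klf2 (r = -0.59, exact p = 0.13, adjusted 0.27; rho = -0.57, exact p = 0.15, adjusted 0.36; r = -0.51 without 279 and 292).

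In the same pathway lists, 4 of 16 other Klf and Sp genes were lower in the lymph nodes than in wt pro-B cells and 1 higher. With the most variable probe set per gene alone, 19.9% of 18193 genes were called. Klf5 stood at -3.22 ± 0.12, Klf1, the erythroid member, at -1.34 ± 0.13, Sp4 at -1.20 ± 0.12, Sp3 at -0.38 ± 0.10 and Klf16 at 0.90 ± 0.25. Of 16 upstream factors Elk3 (1.11), Crtc3 (0.74) and Srf (0.44) were higher and Elk4 (-0.97) and Mef2d (-0.55) lower. Ccr7 (1.05 ± 0.23) was higher among 4 trafficking genes and Batf (0.92 ± 0.20) among 6 Nr4a-linked genes. No Egr or retinoid receptor partner passed.

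Genes most like 3 members were ranked by Pearson r over 15 condition means, each centred on its experiment, as a description in which the 0 h mean and the tumour nodes weigh heavily. For Egr1 they were Epc1 (0.95), Chkb (0.93), Marchf3 (0.93), Psme4 (0.92) and Usp32 (0.92). For Nr4a1 they were Plk2 (0.95), Zfp655 (0.94), Phf3 (0.94), Prkd3 (0.94) and Vps37b (0.93). For Klf2 they were Ralgapb (0.87), Tsnaxip1 (0.87), Rdh1 (0.86), Dock2 (0.86) and Sp100 (0.84), a looser set.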

How the data were processed

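RNA was hybridised to 32 arrays and the authors deposited one matrix of log2 values for 45101 probe sets. Per the submitters' processing notes RMA was used. The log base is not stated and was taken as 2. Every probe set had a median of 0 (within 1e-05) over the 6 arrays of the line and over the 8 arrays of the course, so levels cannot be read. Array medians lay between -0.014 and 0.049. The number of arrays limits the precision.

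Of 45037 probe sets that are not array controls, 34945 had 1 gene symbol, 932 several and 9160 none. Each experiment was fitted with lmFit and eBayes (limma 3.58.1, R 4.3.3), 2 arrays of a lymph node averaged first. No filter on low values could be set on centred values. Fits were tested on simulated data. Correlations used scipy 1.17.1 with exact permutations. Figures used matplotlib 3.10.9.

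Same-numbered samples of the line deviated together (r = 0.26, 0.39 and 0.48). So did Ebf1-engrailed sample 1 with empty-vector sample 2 (0.345) and sample 2 with sample 1 (0.122). Number 3 against 1 or 2 gave -0.454 to -0.235. Number 3 is thus set apart, while a pairing among numbers 1 and 2 is not clear. The block is given where it changes a call. Members and lists were chosen with earlier results of these data known. Named genes are the members, called members of the lists, and the 5 genes most like Egr1, Nr4a1 and Klf2. In a list a gene counts by its most variable probe set. Alternatives are given in the closing section.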

Additional observations from a re-analysis of the deposited data

Results flagged for a closer look

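In 5 of 23 member probe sets 1 lymph node stood apart, with a gap to its nearest neighbour, relative to the range over the 8 nodes, beyond Dixon's 95% critical value. Chance alone would set about 1 in 20 groups apart, and 9.67% of all 45037 probe sets showed such a gap over the same nodes. Lymph node 317 was the highest for Nr4a1 (gap 0.832 of the range), for the Nr4a3 probe set 1438796_at (0.755) and for the Klf4 probe set 1417395_at (0.557). The other Nr4a3 probe sets showed no such gap, nor did the chosen Klf4 probe set, 1417394_at (0.427 for lymph node 317). Lymph node 327 was the lowest for Klf2 (0.557). Among the Nr4a2 probe sets only 1433423_at showed such a gap, with lymph node 278 the highest (0.537). Its value there was 0.95 against -0.37 to 0.24 in the other nodes. The 2 arrays of lymph node 278 differed for that probe set, at 1.32 and 0.59. Those of lymph node 317 read 5.10 and 5.12 for Nr4a1 and 1.81 and 2.03 for Nr4a3, and those of 327 read -2.77 and -2.75 for Klf2.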

How the results depend on the processing

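Of 1041 alternatives run for single genes, 967 kept direction (where a change was tested) and side of the threshold, 48 lost the call, 14 gained one and 12 changed sign. Of the 12, only Klf4 at 24 h against 0 h had been called (0.12 with quantile normalization, adjusted p = 0.45). The other 11 were uncalled in both settings. They were Klf4 in the line (-0.02 with the most variable probe set per gene, and 0.00, on the other side of 0, without both samples numbered 3), Nr4a3 with the mean of its probe sets at 12 h (0.02) and 24 h (0.14) against 0 h and from 12 to 24 h (0.12), from 12 to 24 h without 1 array Nr4a3 (-0.20 to 0.11), Egr2 (-0.14 to 0.01) and Egr3 (-0.20 to 0.02, above 0 without either of 2 arrays), and in the tumours without 1 sample Nr4a1 (-0.37 to 0.45) and Nr4a3 (-0.01 to 0.31), each below 0 without lymph node 317 alone. Centring each array on its median, robust eBayes and the use of single-gene probe sets alone kept every count of called genes within 1.5 times. The causes of the following moves were not tested. Of 9 genes, the count called in the line (3) was 0 with all groups in 1 model and 5 with the replicate block, where 13.7% of all probe sets were called, and 0 to 4 without 1 sample. The counts from 6 to 12 h (1) and 12 to 24 h (2) were 0 and 0 with all groups in 1 model, 2 from 6 to 12 h with the mean of probe sets and with quantile normalization, and 0, and 0 to 1, without 1 array. The tumour count (2) was 0 with quantile normalization and 0 to 3 without 1 sample. Of correlated pairs (1), 0 passed with the mean of probe sets, without the 2 farthest nodes or by Spearman's rho. The share of all probe sets called moved in the line to 13.6% with the most variable probe set per gene, 15.2% with the mean, 16.5% among the more variable probe sets and 18.4% without both samples numbered 3 (chosen after seeing the data), and 3.40% to 11.8% without 1 sample. At 6, 12 and 24 h it was 12.8%, 19.1% and 17.0% with quantile normalization, 56.2%, 61.4% and 61.3% among the more variable probe sets and 16.3%, 20.2% and 19.9% with all groups in 1 model. From 6 to 12 h it was 2.39% with the most variable probe set, 3.22% with the mean, 4.55% with quantile normalization, 3.06% among the more variable probe sets, 0.0155% with all groups in 1 model and 0.870% with the replicate block, and from 12 to 24 h 5.13% with the mean, 6.63% with quantile normalization, 6.72% among the more variable probe sets, 0.102% with all groups in 1 model and 1.84% with the block. Without 1 array these were 0.235% to 0.417% and 0.0600% to 0.613%. In the tumours it was 3.00% with quantile normalization, 24.4% among the more variable probe sets and 3.93% to 17.5% without 1 sample, and between nodes 84.5% among the more variable probe sets. Numbers in the course share only a number (r from -0.17 to 0.15). There the block ended the call of Klf2 from 6 to 12 h (adjusted p = 0.074) and gave one to Klf6 (0.040), all by limma. Levels and signal over background could not be read, and 2 arrays a time and 2 wt samples limit the precision.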

Other observations

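The other 6 members were ranked for likeness in the same way as Egr1, Nr4a1 and Klf2, a choice made after values were seen, and the r values are a description over the same 15 condition means. For Klf6 the closest genes were Chkb (0.94), Susd6 (0.93), the stress-induced phosphatase regulator Ppp1r15a (0.92), Atp6ap2 (0.91) and the AP-1 gene Junb (0.91). For Klf4 they were Nfkbia (0.87), the inhibitor that NF-kB induces, Ss18 (0.86), Fam102b (0.85), the RNase Zc3h12a (0.85) and Zfr (0.85). Rasgef1b was among the 5 closest of both Egr2 (0.91) and Egr3 (0.94), and Psme4 of both Egr1 (0.92) and Egr3 (0.93). For Nr4a2 the closest were Pank2 (0.89) and Prr36 (0.88), and for Nr4a3 Atg101 (0.95) and Adamts6 (0.95).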
